A study of Mus musculus with 2 samples.

Results

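Synpo2, Des, Pgm5, Nexn, Pdlim3, Pdlim7, Ldb3, Flna and Vcl are 9 genes of the muscle anchoring apparatus, and they are described here in mouse ureters with and without a conditional deletion of Gata6. They were taken by name: a gene belongs to the set where a non-control probe on both arrays carries its symbol. This gave 9 of the 29875 genes and 17 of the 39429 probes on the array. All 9 genes and 15 of their probes passed the filter on dim spots, as did 19801 genes and 26200 probes in all.

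The ureters came from NMRI embryos at E14.5. RNA labelled Gata6cKO was from Tbx18(cre/+);Gata6(fl/fl) embryos, in which cre made from the Tbx18 locus, a gene of the ureteric mesenchyme, deletes floxed Gata6. Control RNA was from Gata6(fl/?) embryos, whose second Gata6 copy is not specified, with no cre in the label. Total RNA (150 ng input) of each genotype was hybridised together on 2 two-colour arrays: a male pair with Gata6cKO in Cy5 (replicate 1) and a female pair with the dyes exchanged (replicate 2). The labels give cre for Gata6cKO alone, so loss of Gata6, the presence of cre and the change of a Tbx18 copy cannot be told apart. Sex and dye orientation cannot be told apart between the arrays either. Nothing in the labels tells single embryos from pools. The p-values rest on the spread between these 2 arrays, largely pooled across genes, and that spread may be technical. The ureter is measured in bulk, so fewer cells of a type and less RNA per cell cannot be told apart.

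Between 67.2% and 68.5% of spots were well above background in the 4 RNAs, and 0 spots were saturated. All 20 urothelial markers listed, and 19 of 20 smooth muscle genes, passed the filter on dim spots, as did markers of skeletal muscle, neurons and blood. The single Gata6 probe was higher in Gata6cKO, with a log2 ratio of 0.65 ± 0.12. Its place relative to the loxP sites was not analysed here, so it checks nothing about the labels, and Gata6cKO and control stand throughout for the RNAs so labelled. Of the 19801 genes tested, 901 passed an adjusted p of 0.05 (limma, Benjamini-Hochberg over all genes), a background of 4.55%. Of these, 436 were higher in Gata6cKO (2.2%) and 465 lower (2.35%).

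Smooth muscle cells have no Z-discs. Their actin filaments are held at dense bodies in the cytoplasm and at dense plaques on the membrane, where alpha-actinin cross-links them and talin, vinculin and integrins tie them to the matrix. Desmin filaments connect dense bodies to each other. Striated muscle uses many of the same proteins at the Z-disc, the border between sarcomeres. In the ureter, mesenchymal cells around the epithelium become the smooth muscle coat whose contractions move urine to the bladder.

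Synpo2 rose in Gata6cKO ureters, 1.83-fold, and it was the only one of the 9 genes to pass the test. Thus 1 of 9 passed upward, beside 2.2% of all genes. The other 8 did not pass in either direction, with log2 ratios between -0.23 (Nexn) and 0.28 (Pgm5) and adjusted p-values of 0.348 or above. The largest fold difference among these 8 was 1.22. One Pgm5 probe passed when every probe was tested alone, and the probe that stands for Pgm5 did not. The median log2 ratio of the 9 genes was 0.02, from -0.02 (male array) and 0.11 (female array), beside -0.00 over all genes tested. Without Synpo2 the median of the other 8 was -0.04.

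The probe sequences of Synpo2, Pgm5 and Ldb3 are shown because the probes of each gave unlike values. Each probe is 60 bases long, and its first 30 bases are given 5′ to 3′ as deposited. The 3 Synpo2 probes and the 3 Pgm5 probes lie on one transcript each (NM_080451 and NM_175013), and the 2 Ldb3 probes on different transcripts (NM_001039076 and NM_011918). The number in each name is the probe's first base in its transcript.
Synpo2, base 3168: cacaaatgcgcaggcttcttctgtgtactc
Synpo2, base 4399: gatataacatgcatttgccatttaccttgt
Synpo2, base 7034: ctctgtcctcaaaggctgtatgtgaaagat
Pgm5, base 624: tggagattgtggaccccgttgacatctatc
Pgm5, base 2826: gcgccttaaggaaagatttccagcaaggtg
Pgm5, base 7707: aaacccatcctggtattagagatatggcct
Ldb3, base 1313: aactcccacaagtggagtctctgtacaccc
Ldb3, base 4643: gcatagtgttaagattaaggctgaatgtcg

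On mm9, the build of the array files, the Synpo2 probes lie on the minus strand at chr3:122815498-122815557, chr3:122782094-122782153 and chr3:122779459-122779518, in the order printed. The Pgm5 probes lie on the minus strand at chr19:24894676-24894735, chr19:24757846-24757905 and chr19:24752965-24753024. The Ldb3 probes lie on the minus strand at chr14:35374689-35374748 and chr14:35340222-35340281. Which of them fall in coding or untranslated exons was not analysed here. A Des probe and a Vcl probe span 226 and 462 bases of mm9 for 60 bases of transcript (chr1:75363404-75363629 and chr14:21848574-21849035), so each crosses an intron.

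Synpo2 encodes synaptopodin 2 (myopodin), which binds actin, alpha-actinin and filamin at Z-discs and dense bodies. Signals below are normalised linear values after background correction, in which an offset of 50 is included. At base 7034 the Synpo2 signal was 600.9 in control and 1025 in Gata6cKO on the male array. On the female array it was 508.2 in control and 997 in Gata6cKO. Both Gata6cKO RNAs were above both controls, and the 2 Gata6cKO values lay closer together than the 2 control values. The log2 ratio was 0.87 ± 0.11 (moderated SE, n = 2 arrays; 0.77 and 0.97), with a limma adjusted p of 0.000451, rank 159 by p among 19801 genes.

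The Synpo2 result rests on this one probe. At base 3168 none of the 4 spots was well above background in any of the 4 RNAs (0 of 4), and signals lay between 89.6 and 97.6. At base 4399, 2 and 1 of 4 spots were above background in the male control and Gata6cKO RNAs and 0 in both female RNAs, with signals between 106.3 and 117.2. Both probes were below the filter, and their log2 ratios (0.12 and 0.05 at base 3168, -0.10 and 0.03 at base 4399) have no test. The Synpo2 transcript was therefore measured at base 7034 and was not measurable at the other 2 positions.

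Nexn encodes nexilin, an actin-binding protein of Z-discs and cell-matrix adhesions, and its single probe lies on mm9 at chr3:151900010-151900069. Its signal was 2117 in control and 1802 in Gata6cKO on the male array, and 1863 and 1588 on the female array. Both Gata6cKO values were below both control values, and the log2 ratio was -0.23 on each array. The mean of -0.23 ± 0.11 did not pass (limma adjusted p = 0.470).

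**Figure D1:**
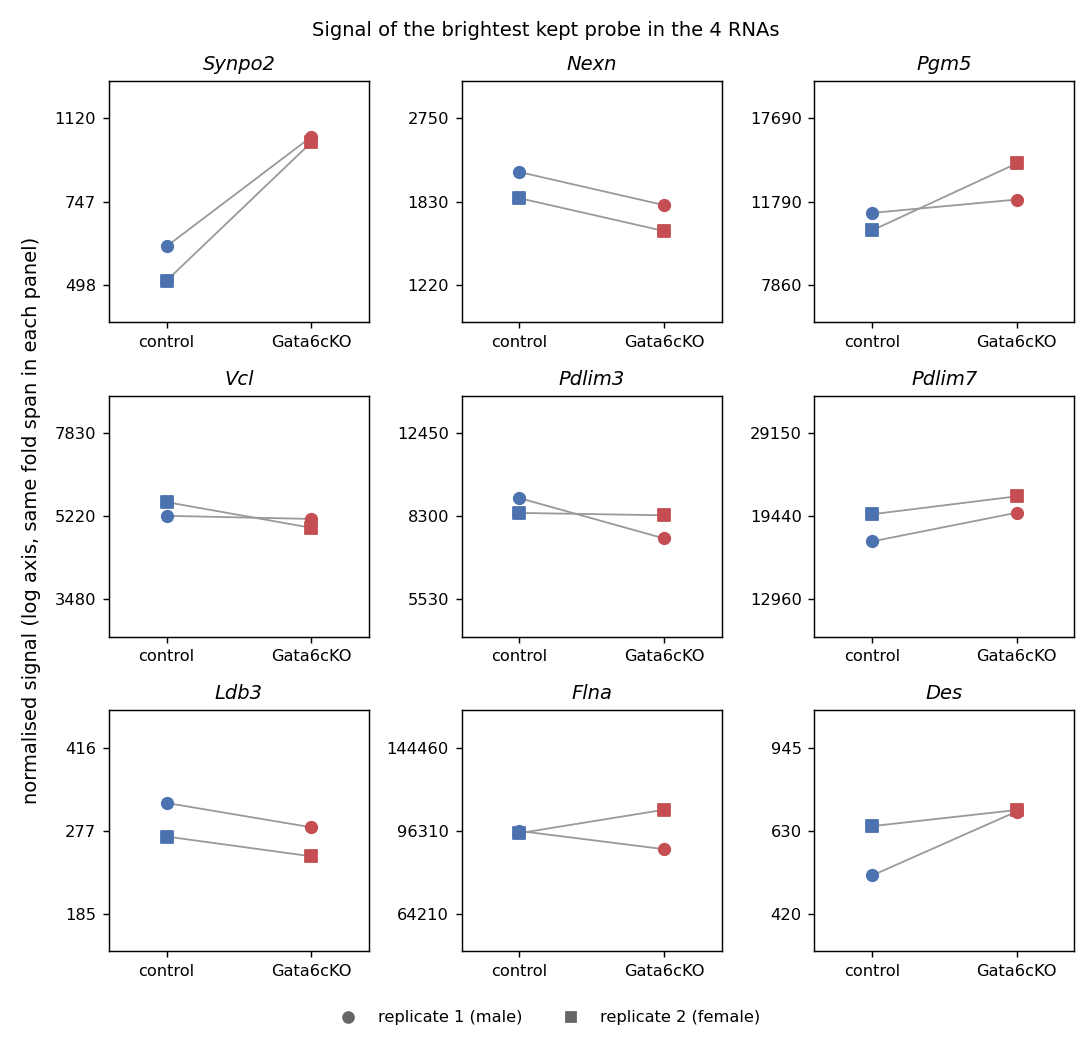
Normalised signal of the probe that stands for each of the 9 genes in the 4 RNAs, on log axes that cover the same fold span in every panel; lines join the 2 RNAs of an array, circles are the male and squares the female pair. Synpo2 goes from 600.9 and 508.2 in control to 1025 and 997 in Gata6cKO, and the Flna lines run in opposite directions.

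Pgm5 encodes aciculin, an enzyme-like protein without known phosphoglucomutase activity that binds dystrophin and sits at vinculin-rich adhesion sites. All 3 of its probes gave positive log2 ratios on both arrays. At base 2826, the probe that stands for the gene, the signal was 11159 in control and 11910 in Gata6cKO on the male array and 10246 and 14204 on the female array. The groups did not overlap, but the arrays gave unequal log2 ratios of 0.09 and 0.47, and the mean of 0.28 ± 0.12 did not pass (limma adjusted p = 0.365).

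The other Pgm5 probes gave differences of other sizes. At base 624 the signal was 218.8 in control and 342.5 in Gata6cKO on the male array and 243.1 and 338.0 on the female array. This probe had a log2 ratio of 0.56 ± 0.11, 1.48-fold, and passed when all 26200 kept probes were tested alone (limma adjusted p = 0.00597), where 4.66% of probes passed, with 2.23% of all probes higher in Gata6cKO. At base 7707 the signal was 2757 and 3693 on the male and 3032 and 3373 on the female array, a log2 ratio of 0.29 (0.42 and 0.15; limma adjusted p = 0.271). The array with the larger ratio was the male one at bases 624 and 7707 and the female one at base 2826. The mean of the 3 probes was 0.38 (limma adjusted p = 0.0607 over genes). Probe-level testing was chosen after the data had been seen.

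Vcl encodes vinculin, which links talin to actin at adhesion plaques. The probe that stands for it (base 4438, mm9 chr14:21852105-21852164) read 5232 in control and 5152 in Gata6cKO on the male array and 5592 and 4935 on the female array. Both Gata6cKO values were just below both controls, with a log2 ratio of -0.10 ± 0.11 (-0.02 and -0.18). The other probe, at base 3009, which crosses an intron, gave -0.09, with 0.04 and -0.22 on the arrays. Neither passed.

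**Figure D2:**
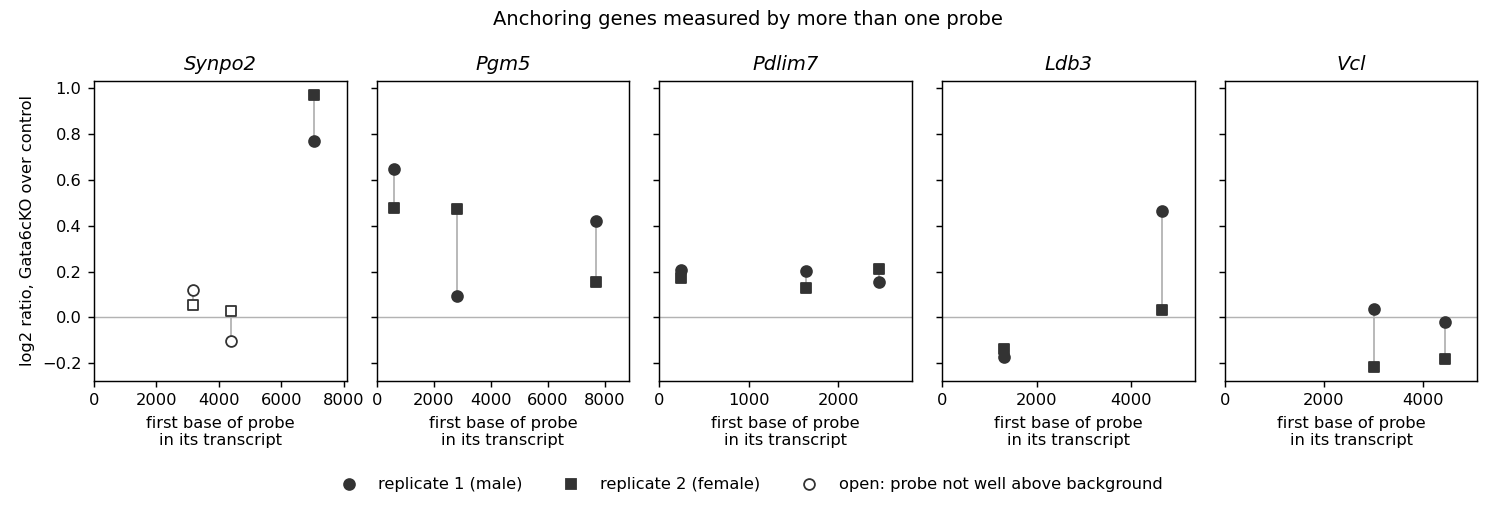
Log2 ratio of Gata6cKO over control for each probe of the 5 genes with several probes, placed by the probe's first base in its transcript; circles are the male and squares the female array, and open symbols are probes not well above background. The Synpo2 difference appears at base 7034 alone, the 3 Pgm5 probes lie above 0, and the 2 Ldb3 probes lie on opposite sides of 0.

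Pdlim3, Pdlim7 and Ldb3 encode PDZ-LIM proteins, scaffolds that hold on to alpha-actinin with a PDZ domain and recruit other partners with LIM domains. Pdlim3 (ALP; mm9 chr8:47004658-47004717) had signals of 9062 in control and 7445 in Gata6cKO on the male array, and 8430 and 8332 on the female array. Its log2 ratio of -0.15 ± 0.12 (-0.28 and -0.02) came mostly from the male array and did not pass (limma adjusted p = 0.975).

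Pdlim7 (enigma) had signals of 17185 in control and 19765 in Gata6cKO on the male array and 19619 and 21411 on the female array. Its 3 probes, at bases 242, 1637 and 2458, had log2 ratios of 0.19, 0.16 and 0.18, each positive on both arrays. The log2 ratios at these 3 positions were thus close to each other, and the probe that stands for the gene (mm9 chr13:55599777-55599836) gave 0.16 ± 0.11 (limma adjusted p = 0.858).

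Ldb3 (cypher, or ZASP) is best known from the Z-discs of striated muscle. At base 1313 its signal was 317.7 in control and 282.2 in Gata6cKO on the male array and 269.7 and 244.9 on the female array, so the groups overlapped. The log2 ratio was -0.15 ± 0.11 (-0.17 and -0.14). At base 4643, on the other transcript, the signal was 168.6 and 232.5 on the male and 154.4 and 157.9 on the female array, a log2 ratio of 0.25 (0.46 and 0.03). The 2 Ldb3 probes differed in sign, neither passed, and no single direction can be given for the gene.

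Flna encodes filamin A, which cross-links actin and binds integrin tails. Its probe (X chromosome, mm9 chrX:71468802-71468861) read 96195 in control and 88054 in Gata6cKO on the male array and 95197 and 106691 on the female array. The control values were nearly equal, and the Gata6cKO values lay on either side of them. The log2 ratio was 0.02 ± 0.12, from -0.13 and 0.16.

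Des encodes desmin, the intermediate filament protein of muscle. Its signal was 506.6 in control and 692 in Gata6cKO on the male array and 644.4 and 697.2 on the female array. The 2 Gata6cKO RNAs were nearly level while the controls differed, and the log2 ratio of 0.28 ± 0.12 (0.45 and 0.11) did not pass (limma adjusted p = 0.348). Pgm5 and Des were the only ones of the 8 with an unadjusted p under 0.05 (0.0374 and 0.0348), which 11.4% of all genes tested had.

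Of the 9 genes, 8 had the same sign on both arrays, as did 48.8% of all genes tested. The 4 signals did not overlap between genotypes for 7 genes, with Gata6cKO above in 4 (Synpo2, Pgm5, Des and Pdlim7) and below in 3 (Nexn, Vcl and Pdlim3). Over all genes tested the signals did not overlap for 33.4%, above for 15.9% and below for 17.5%. Over all genes the 2 arrays' log2 ratios differed by a median of 0.16. Among the 9 genes the arrays differed by 0.00 for Nexn to 0.38 for Pgm5. The moderated SE was between 0.11 and 0.12 for all 9, since it was largely pooled across genes.

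**Figure D3:**
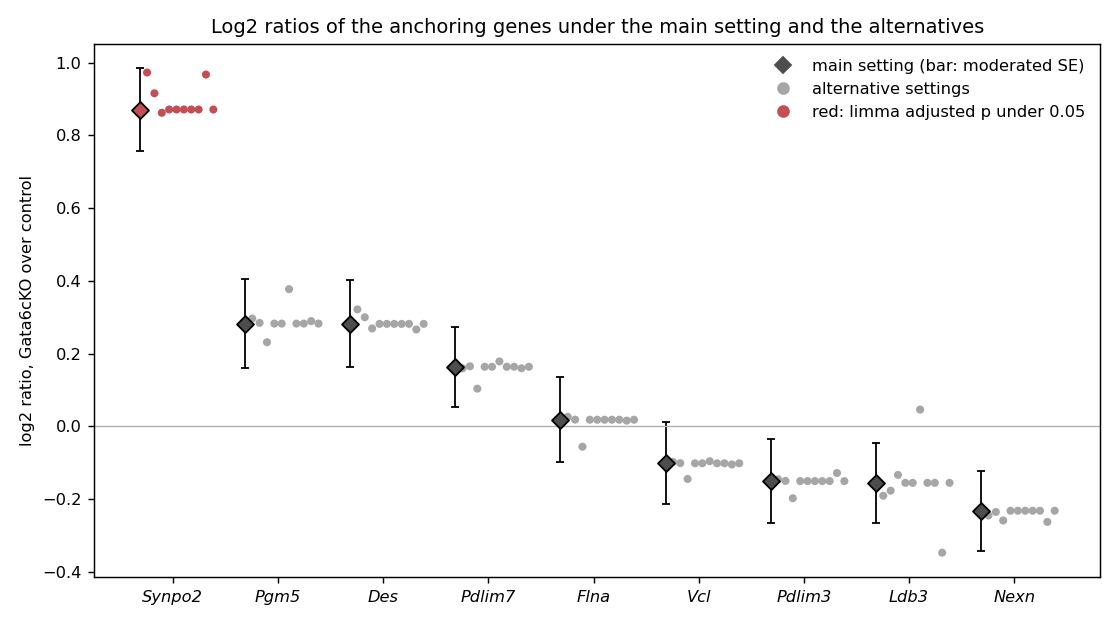
Log2 ratio of Gata6cKO over control for the 9 genes in the main setting (diamond, bar: moderated SE, n = 2 arrays) and in 10 alternative settings (dots), red where the limma adjusted p was under 0.05. Synpo2 stays between 0.86 and 0.97, and Flna and Ldb3 each cross 0 in 1 alternative.

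Promoters were available from RefSeq (GRCm38.p6) for 8 of the 9 genes, in 9 windows of 250 bases before to 50 after the transcript start. They were searched on both strands for the CArG box, the element bound by serum response factor, for the MEF2 box, and for GATAA, the core bound by GATA factors. The MEF2 box was found once, in Synpo2, at -236 from the start, and in 3.19% of 32851 promoters in all. The CArG box was found in Vcl at -227 and in Ldb3, in 2 overlapping windows, at -35 and -109, against 1.63% of all promoters. GATAA or its reverse TTATC was found in Des, Pdlim3 and Vcl, against 25.4% of all, and not in the Synpo2 window. A match is a run of letters and not a shown binding site. The Synpo2 window, for the gene that rose, and the Vcl and Ldb3 windows, for the genes with a CArG box, are printed with the match in capitals, on the minus strand for Synpo2 (chr3:123236100-123236399) and Ldb3 (chr14:34588632-34588931) and on the plus strand for Vcl (chr14:20929148-20929447).
Synpo2: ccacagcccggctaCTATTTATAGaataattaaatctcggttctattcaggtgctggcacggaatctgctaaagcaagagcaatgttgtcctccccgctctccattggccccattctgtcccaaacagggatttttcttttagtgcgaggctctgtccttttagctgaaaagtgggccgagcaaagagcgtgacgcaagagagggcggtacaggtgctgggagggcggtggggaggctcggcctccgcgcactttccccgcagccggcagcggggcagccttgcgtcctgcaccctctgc
Vcl: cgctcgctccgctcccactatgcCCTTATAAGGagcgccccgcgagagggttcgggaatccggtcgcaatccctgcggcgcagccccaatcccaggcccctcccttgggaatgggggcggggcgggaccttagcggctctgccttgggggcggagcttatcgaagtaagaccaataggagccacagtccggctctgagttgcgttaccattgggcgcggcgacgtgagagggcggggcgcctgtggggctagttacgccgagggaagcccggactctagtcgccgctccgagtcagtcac
Ldb3: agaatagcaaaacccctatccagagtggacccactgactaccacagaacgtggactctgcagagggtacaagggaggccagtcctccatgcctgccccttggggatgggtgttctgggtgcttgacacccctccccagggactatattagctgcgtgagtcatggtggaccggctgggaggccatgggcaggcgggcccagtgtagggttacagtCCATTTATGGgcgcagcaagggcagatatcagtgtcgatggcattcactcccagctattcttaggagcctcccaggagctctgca

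Of the genes with a CArG box, Vcl had a log2 ratio of -0.10, and the 2 Ldb3 probes were at -0.15 and 0.25. Neither gene passed. Synpo2, with the MEF2 box, was at 0.87. Genes with neither box ranged from Pdlim3 at -0.15 to Pgm5 at 0.28, and none of them passed. Nexn, at -0.23, had no promoter window to search. A relation between boxes and log2 ratios was not tested.

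The proteins that surround these genes at dense bodies and adhesions were measured through a list of 39 partners, of which 38 were tested. In it 2 rose, 0 fell and 36 did not pass, and the median log2 ratio was -0.03 (at an unadjusted p under 0.05, 2 were higher and 1 lower). Lims2 (PINCH-2), an adaptor that binds integrin-linked kinase, rose from 784.1 to 1207 on the male and from 634 to 972.6 on the female array (0.62 ± 0.11, limma adjusted p = 0.00416). Itga7, the integrin subunit that muscle uses to bind laminin, rose from 636.5 to 907.9 and from 462.2 to 602.9 (0.45 ± 0.11, limma adjusted p = 0.0355). Both genes were higher in Gata6cKO within each pair, and their calls held in 8 and 6 of 10 alternative settings. Actn1, the alpha-actinin of dense bodies, had a log2 ratio of 0.00 ± 0.13, from 0.28 (male) and -0.27 (female).

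Close relatives of the 9 genes were listed as well, and of 15 tested 1 rose, 0 fell and 14 did not pass, with a median of 0.02 (at an unadjusted p under 0.05, 1 was higher and 1 lower). The gene that rose was Prph, which encodes peripherin, an intermediate filament protein of peripheral neurons and a relative of desmin. Prph read 307.1 in control and 731.9 in Gata6cKO on the male array and 287.3 and 711.2 on the female array (1.28 ± 0.11, limma adjusted p = 1.68e-05). It also stands in the list of neuron and glia markers, in which 14 of 21 rose.

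The nearest relatives of Synpo2 did not pass. Synpo (synaptopodin) had a log2 ratio of -0.20 ± 0.11. Synpo2l had one of 0.07 ± 0.21 from 0.72 (male) and -0.57 (female), so its arrays went opposite ways. Among the other PDZ-LIM genes, Pdlim1 was at -0.18, Pdlim2 at 0.02 and Pdlim4 at 0.04. Pdlim5 (ENH) was at -0.35 ± 0.11 (limma adjusted p = 0.113). Its 3 probes gave -0.49, -0.35 and -0.41, and the first and the last passed when tested alone (limma adjusted p = 0.0139 and 0.0488). Flnc, the muscle filamin, was at 0.15 ± 0.11, beside Flna at 0.02.

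Of 23 further Z-disc genes of striated muscle, 16 were tested, and 2 rose, 1 fell and 13 did not pass, with a median of 0.10. Actn2, the alpha-actinin of the Z-disc, rose from 165 to 243 on the male and from 122.3 to 178.6 on the female array (0.55 ± 0.11, limma adjusted p = 0.00913). Myoz2 (calsarcin-1), which binds alpha-actinin and calcineurin, rose at least 1.35-fold, from control RNAs in which it was not well above background (limma adjusted p = 0.0407). It passed the filter on dim spots through Gata6cKO alone, so its call is not independent of that filter. With all 4 spots required in all channels Myoz2 was not tested. Fhl1, a LIM-only protein of muscle, fell by 0.48 on the log2 scale (limma adjusted p = 0.0322). Of 10 alternative settings, 7 called Actn2, 6 called Fhl1 and 5 called Myoz2, and neither median centring nor separate channels called any of the 3. With the processed signals Actn2 was at 1.00 and Myoz2 at 1.10, and with the deposited values at 1.02 and 1.11.

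Among markers of skeletal muscle, log2 ratios were above 0 for 15 and below 0 for 2. Of 22 such markers 17 were tested, and 7 rose, 0 fell and 10 did not pass, with a median log2 ratio of 0.45 (0.52 male, 0.33 female). Myh3, the embryonic myosin heavy chain, was at 1.04 and Myl1, a fast myosin light chain, at 0.81. The summed signal of the list was 37020 in control and 45357 in Gata6cKO on the male array, and 33220 and 33795 on the female array. Actc1, an actin that carries much of this sum, was at -0.35, 1 of the 2 markers below 0, and did not pass. Without Actc1, a step that was not planned, the sum was 15040 to 17265 in control and 21108 to 28021 in Gata6cKO. Chrng, Ckm, Myf5, Myf6 and Pax7 were below the filter. Of 9 cardiac markers 3 were tested, and 1 of them rose (Myh6, 0.47), with Tnni3 at 0.34 (limma adjusted p = 0.126). Their summed signal was 959.8 to 1015 in control and 1208 to 1241 in Gata6cKO, and Mybpc3, Myl7, Nkx2-5, Nppa, Nppb and Ryr2 were below the filter. The part of either list in the values of the anchoring and Z-disc genes was not tested.

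The contractile genes of smooth muscle, whose filaments the dense bodies anchor, were listed next. Of 19 tested, 0 rose, 4 fell and 15 did not pass, with a median of -0.15 (at an unadjusted p under 0.05, 0 were higher and 6 lower). Cnn1 (calponin), the smooth muscle coactivator Myocd, the actin Actg2 and the myosin heavy chain Myh11 fell by 1.51, 1.33, 1.09 and 0.81 on the log2 scale. Cnn1 and Myocd passed in all 10 alternatives and Actg2 and Myh11 in 9. Myh11 was at -1.42 with the processed signals and -1.43 with the deposited values. Acta2 was at -0.29 ± 0.11 and did not pass (limma adjusted p = 0.242), and Srf was at 0.02 ± 0.12. None of the 9 anchoring genes fell (at an unadjusted p under 0.05 in limma, 0 of 9 were lower and 3 higher, beside 6.1% and 5.26% of all genes), and the difference between the lists was not tested.

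**Figure D4:**
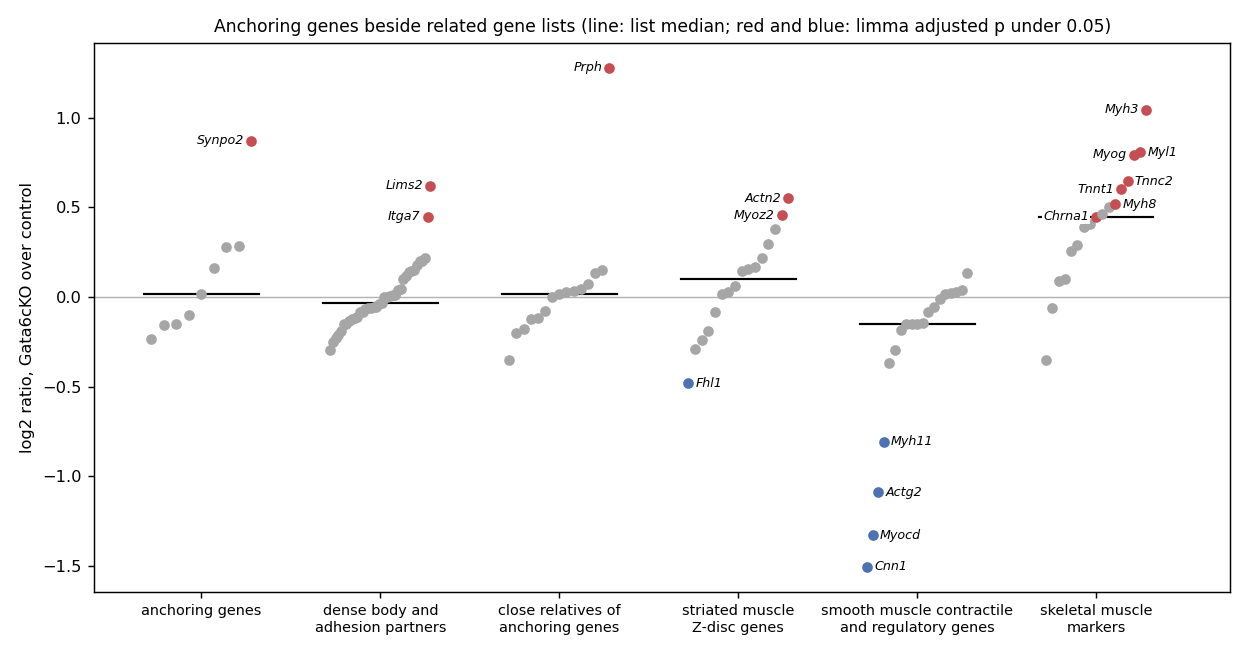
Log2 ratio of Gata6cKO over control for every tested gene of 6 lists, each point a gene (mean of 2 arrays), black lines the list medians, and colour marking a limma adjusted p under 0.05. Synpo2, at 0.87, is the highest of the 9 anchoring genes, the 4 smooth muscle genes that passed lie between -0.81 and -1.51, and 15 of 17 skeletal muscle markers lie above 0.

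Other cell types also moved between the genotypes. Among urothelial markers 0 of 20 rose and 11 fell (0 higher and 14 lower at an unadjusted p under 0.05 in limma; median -0.56; Upk1b -1.98, Upk1a -1.54), with a summed signal of 295806 to 324279 in control and 221081 to 237841 in Gata6cKO. Among neuron and glia markers 14 of 21 rose and 1 fell (median 1.10; Stmn4 1.88, Nefm 1.83), with 121497 to 128364 in control and 147362 to 152555 in Gata6cKO. Fibroblast markers (10 tested, 1 rose, 4 fell, median -0.28; Dpt -1.20, Lum -0.62) summed to 707745 to 766067 in control and 559117 to 578499 in Gata6cKO. Mesothelial markers (7 tested of 9, 2 rose, 3 fell, median -0.35; Rspo1 1.55 and Wt1 1.22 rose, and the other 5 were below 0) summed to 104516 to 115775 and 82562 to 85397. This list shares Krt8, Krt19 and Upk3b with the urothelial one. Without these 3, a step that was not planned, its sum was 8578 to 11042 in control and 13705 to 15668 in Gata6cKO. Wt1 carried much of that sum (5672.5 and 4681.1 in control, 12974.2 and 11148.8 in Gata6cKO). Msln, also in it, fell from 4647 to 1297 on the male and from 3388 to 1545 on the female array (log2 ratio -1.49). Red blood cell markers (10 tested, 0 rose, 3 fell, median -0.34; Slc4a1 -0.54, Ahsp -0.46) summed to 412697 to 420056 and 287171 to 356199. Endothelial markers (10 tested, 0 rose, 1 fell, median -0.04; Tek -0.55, Emcn 0.19) summed to 41745 to 42781 and 39326 to 40762. The part of these cell types in the values of the anchoring genes was not tested.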

How the data were processed

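The deposited scanner files hold, per their headers, a raw mean intensity and a local background intensity per spot and dye, and a processed intensity made by the authors in Agilent Feature Extraction 10.7.3.1 (per the submitters' processing notes). The deposited series values are a score per probe, found by comparison with the scanner files to be the linear fold of Gata6cKO to control, written as a negative number where control was higher. There were 0 unused per-sample columns.

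In R 4.3.3 with limma 3.58.1, raw intensities were background-corrected (normexp, offset 50) and normalised by loess within arrays. Probes were kept with at least 3 of 4 spots well above background in one genotype on both arrays, and the brightest kept probe stood for a gene. Log2 ratios, turned on the dye-swapped array, were fitted with lmFit and eBayes (1 residual and 11.9 prior degrees of freedom), and p-values, two-sided, were adjusted by Benjamini-Hochberg over 19801 genes. Signals in single RNAs were scaled across channels by Aquantile. The fit was tested on simulated data, where signs and sizes were recovered but false calls could exceed the threshold. Promoter sequences are RefSeq's (GRCm38.p6), and probe coordinates are mm9, per the file headers. Symbols follow the RefSeq table, with 28328 probes matched by accession.

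The 9 genes and the lists were chosen with earlier results of these data known. Named from each gene list were up to 3 genes per direction that passed and moved alike on both arrays, with relatives and muscle genes fixed in addition (1 of which is not reported here), and from each cell type list the 2 with the smallest p. Alternatives covered background, centring, filter, probe choice, prior, channels and source of values.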

Additional observations from a re-analysis of the deposited data

Results flagged for a closer look

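Flna had a log2 ratio of -0.13 in the male pair and 0.16 in the female pair, 1 pair each, and was singled out because the pairs moved in opposite directions. Opposite signs were common, since 48.8% of all genes tested had the same sign on both arrays. The arrays differed by 0.29 for Flna, less than for Pgm5 (0.38) and Des (0.34). The Flna difference was not tested, and sex, dye orientation and array cannot be told apart here.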

How the results depend on the processing

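Synpo2 passed in all 10 alternatives to the gene-level fit, at log2 ratios of 0.86 to 0.97, with adjusted p-values up to 0.0493 (median centring). Changes of filter, probe choice, prior and channels left the ratio at 0.87, so they bear on the p-value alone. Only 1 Synpo2 probe was kept, so the mean of kept probes is that probe. With 1 array left out, the Synpo2 log2 ratio was 0.77 or 0.97, with no test possible. Of the other 8 genes, none passed in these 10 settings; Flna (-0.06 to 0.03) and Ldb3 (-0.35 to 0.05) changed sign in 1 setting each. Testing every probe alone, added after the data were seen, called 2 of the 9 genes upward (Synpo2 and Pgm5), and 1 relative (Pdlim5) downward, as did the mean of probes (1). Over all genes, 436 up and 465 down became 90 and 100 with median centring, 248 and 229 without the filter, 278 and 269 with separate channels, 672 and 795 with the deposited values, and 244 and 222 with fewer prior degrees of freedom (5.96 in place of 11.9, also added later). Partners called upward (2) became 0 with median centring or separate channels and 1 without the filter or with the smaller prior. Z-disc genes called upward (2) became 4 with processed signals or deposited values, 1 without the filter or with all 4 spots required, and 0 with median centring, separate channels or the smaller prior; those called downward (1) became 0 without the filter, with median centring, with separate channels or with the smaller prior. Why these counts moved was not tested. The fit was already paired, because each array holds its own pair and the ratio is the paired value. With 2 arrays, precision rests on a spread pooled across genes, and probes near background, such as 2 of the 3 for Synpo2, give no measurable ratio.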

Other observations

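The genes next to Synpo2 were looked at after its value was seen. In RefSeq order, Myoz2, the neighbour on one side, passed (0.46 ± 0.12, limma adjusted p = 0.0407), and Sec24d, a coat protein of transport vesicles and the neighbour on the other side, did not (-0.08 ± 0.11). The next genes outward, Usp53 and Mettl14, had log2 ratios of 0.06 and -0.04 and did not pass. Myoz2 was not well above background in the control RNAs, so it passed the filter through Gata6cKO alone. Its call held in 5 of 10 alternative settings. Synpo2 and Myoz2 are next to each other on chromosome 3, and whether their values are related was not tested.

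Within the PDZ-LIM genes, Pdlim5 had the lowest log2 ratio of the 7 measured here, and all 3 of its probes were below 0 on both arrays, between -0.32 and -0.52. The mean over its probes was -0.42 (limma adjusted p = 0.0389), the only gene-level setting in which Pdlim5 passed. In the main fit it was at -0.35 (limma adjusted p = 0.113). Pdlim7 was the highest of the 7, with 3 probes above 0 on both arrays, and passed in no setting.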
